A study of Mus musculus with 27 samples.

Results

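The lysosome is the acidic compartment in which cells break down proteins, sugar chains and lipids. Its transcripts were followed here in mouse ovary through 39 genes, listed by symbol and matched by Ensembl ID (GENCODE M21) to the 51789 rows of a gene count table. All 39 were found, and all 39 passed the filter on low counts in every comparison. They comprise 10 proteases, 8 glycosidases, 6 genes of lipid degradation, 7 genes for membrane proteins, cholesterol transport, progranulin and the regulator Tfeb, and 8 genes of the proton pump. The study measured polyA RNA of whole ovaries with a Lexogen QuantSeq kit, a method that reads tags near the 3' end of transcripts. Its title puts the question as what the enzyme TXNRD1, thioredoxin reductase 1, does in age-associated inflammation, and its design sets young and aged mice beside aged mice given an inhibitor of that enzyme. In experiment 1 there were 4 aged mice treated with TRi-1, an inhibitor of thioredoxin reductase 1, 4 aged untreated mice and 5 young untreated mice. In experiment 2 there were 4 aged mice treated with auranofin, a gold compound that inhibits thioredoxin reductases, 5 aged untreated mice and 5 young untreated mice. The labels name no transgene or deletion, and they give no strain, age, dose, route or time of treatment. Replicates are taken as separate mice.

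Most of the 39 gene products are soluble acid hydrolases, which are tagged in the Golgi, delivered to the lysosome and matured there. The vacuolar proton pump (V-ATPase) acidifies the compartment by coupling ATP hydrolysis in its V1 sector to proton passage through its V0 sector. Transcription of many of these genes is driven by TFEB and its relatives TFE3 and MITF, which bind an E-box in promoters known as the CLEAR element. Cells that clear debris, macrophages above all, are rich in lysosomes, and the ovary engulfs dying follicles and regressing corpora lutea throughout reproductive life.

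The CLEAR element is built on the motif TCACGTG, so promoters were searched for it on both strands, from 250 bases before to 50 bases after the RefSeq start. The sequences below, from RefSeq on GRCm38.p6, show members with and without the motif that also behaved differently with age. Each run is the 250 bases before the start, read 5′ to 3′ along the gene, with matches to TCACGTG or its reverse complement CACGTGA in capitals. Lamp1 (chr8:13158911-13159160, plus strand) held 4 separate matches, Gla (chrX:134601006-134601255, minus strand) and Ctsd (chr7:142387828-142388077, minus strand) held 2 separate stretches each, Atp6v1a (chr16:44139260-44139509, minus strand) held 1, and Ctss (chr3:95526536-95526785, plus strand) held 0.
Lamp1: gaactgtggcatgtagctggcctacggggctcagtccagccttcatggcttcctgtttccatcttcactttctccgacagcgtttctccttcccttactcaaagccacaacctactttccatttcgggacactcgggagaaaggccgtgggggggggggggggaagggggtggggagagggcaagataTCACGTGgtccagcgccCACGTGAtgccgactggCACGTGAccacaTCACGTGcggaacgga
Gla: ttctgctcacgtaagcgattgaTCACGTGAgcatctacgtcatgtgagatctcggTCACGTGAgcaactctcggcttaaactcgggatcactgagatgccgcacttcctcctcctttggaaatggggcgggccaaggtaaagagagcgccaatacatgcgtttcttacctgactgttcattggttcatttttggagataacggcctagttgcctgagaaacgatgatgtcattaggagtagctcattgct
Ctsd: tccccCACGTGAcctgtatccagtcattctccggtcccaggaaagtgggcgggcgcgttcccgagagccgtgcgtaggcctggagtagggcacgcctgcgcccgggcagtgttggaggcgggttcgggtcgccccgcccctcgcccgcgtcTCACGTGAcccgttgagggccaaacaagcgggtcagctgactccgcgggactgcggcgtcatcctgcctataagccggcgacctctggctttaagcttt
Atp6v1a: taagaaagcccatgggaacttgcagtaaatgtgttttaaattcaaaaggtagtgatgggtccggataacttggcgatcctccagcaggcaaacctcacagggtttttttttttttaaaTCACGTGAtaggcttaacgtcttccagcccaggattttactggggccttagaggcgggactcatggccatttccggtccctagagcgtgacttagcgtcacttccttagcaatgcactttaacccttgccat
Ctss: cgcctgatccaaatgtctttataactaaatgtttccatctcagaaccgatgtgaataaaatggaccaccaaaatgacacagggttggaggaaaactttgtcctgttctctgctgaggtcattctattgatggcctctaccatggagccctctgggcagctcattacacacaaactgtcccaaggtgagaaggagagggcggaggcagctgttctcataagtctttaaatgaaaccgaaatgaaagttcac
The matches began 62, 45, 28 and 16 bases before the start in Lamp1, 228 and 195 bases before it in Gla, 245 and 99 bases before it in Ctsd and 132 bases before it in Atp6v1a. In Gla, Atp6v1a and the Ctsd stretch nearer the start, the motif runs on both strands of the same 8 bases. Of the 39 members, 33 had a promoter in the table, and 11 of these (33.3%) held the motif: Ctsa, Ctsd, Lgmn, Glb1, Gaa, Gla, Naglu, Lamp1, Mcoln1, Atp6v0d1 and Atp6v1a. Over all 27025 genes with a promoter the share was 4.29%. The core CACGTG, which lies within that motif, was present in 12 of the 33 (36.4%), against 8.09% of all genes. A match describes letters in a window and does not show that a factor binds there. Entries for Ctsb, Ctsh, Asah1, Npc1, Atp6v1b2 and Atp6v1h were not used here.

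Library totals ran from 6460903 to 14814381 counts over the 27 libraries. As a check of the tissue, the 10 oocyte markers, which include the zona pellucida gene Zp3, summed to 108.7 to 218.4 CPM in young ovaries of experiment 1 and to 4.225 to 119.1 CPM in those of experiment 2, and to at most 10.72 CPM in any aged ovary. CPM are counts scaled to a common library total, after TMM normalization. Zp2 and Figla had 0 counts in both untreated aged groups. In experiment 2, 2 libraries, young replicate 3 and auranofin replicate 3, were poor in luteal transcripts, at 89.41 and 99.03 summed CPM of 8 markers. Young replicate 3 was also low in oocyte and granulosa cell markers, at mean log2 CPM of -1.61 and 1.38. The other young ovaries of experiment 2 had 1.32 to 2.08 and 3.72 to 4.44. Auranofin replicate 3 had 1.13 for granulosa cell markers, against 2.20 to 3.45 in the rest of its group. That level was not unique among aged ovaries, since untreated aged replicate 1 of experiment 2 had 0.65. In experiment 1, TRi-1 replicate 1, aged replicate 3 and young replicate 5 were rich in 6 liver transcripts such as Alb.

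The lysosomal genes took a larger share of all counts in aged than in young ovaries in both experiments. In experiment 1 the 39 genes together took 1.14 ± 0.18% of all counts in TRi-1-treated aged ovaries and 1.26 ± 0.298% in untreated aged ovaries, against 0.45 ± 0.0526% in young ovaries (mean ± SD, n = 4, 4 and 5). In experiment 2 they took 1.56 ± 0.53% in auranofin-treated aged ovaries and 1.37 ± 0.291% in untreated aged ovaries, against 0.736 ± 0.0956% in young ovaries (n = 4, 5 and 5). The lowest untreated aged ovary lay above the highest young ovary in each experiment, at 0.986% against 0.521% and at 0.93% against 0.825%. The plot of shares shows this separation, with TRi-1-treated ovaries at 0.933% to 1.36% and auranofin-treated ovaries at 0.882% to 2.11%.

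**Figure D1:**
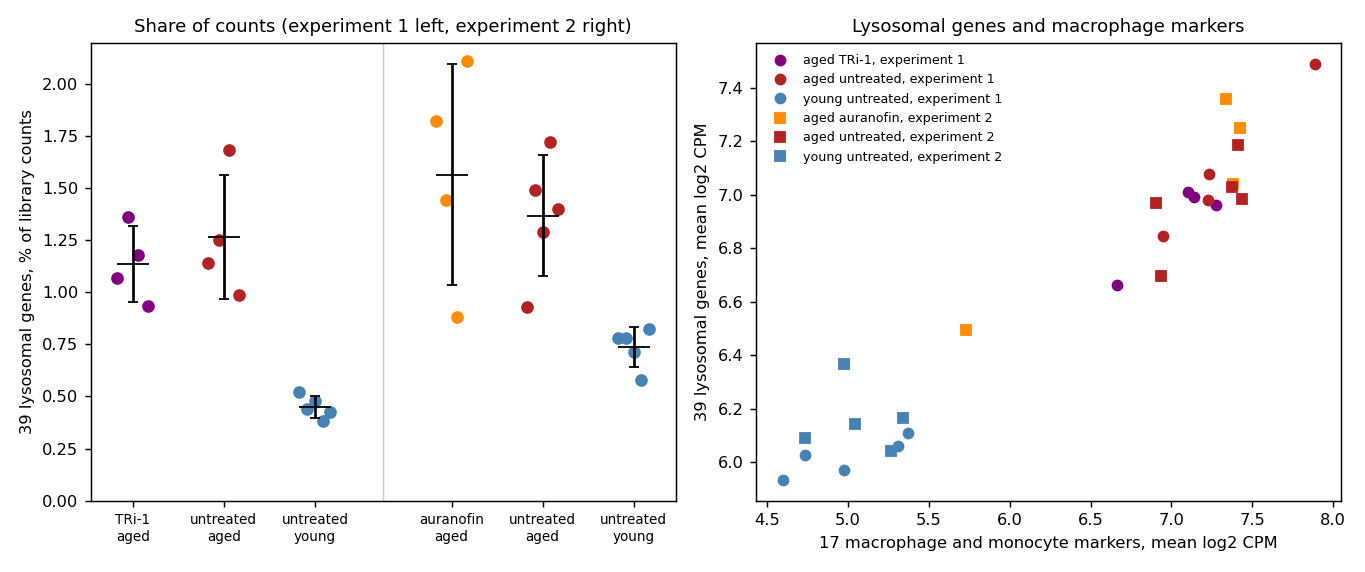
Left, the share of library counts (%) taken by the 39 lysosomal genes in each ovary, with the mean and SD of each group; young ovaries sit between 0.384% and 0.825% and untreated aged ovaries between 0.93% and 1.72%. Right, the mean log2 CPM of the 39 genes against that of 17 macrophage and monocyte markers, 1 point per ovary; aged and young ovaries form separate clusters, and auranofin replicate 3 lies between them.

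Untreated aged against untreated young ovaries were compared gene by gene with edgeR's quasi-likelihood test, and a gene is called at a Benjamini-Hochberg adjusted p below 0.05 over all genes tested. In experiment 1, 27 of the 39 members rose, 1 fell and 11 did not pass. Over all 16028 genes tested 18.5% rose and 16.4% fell. In experiment 2, 11 of the 39 rose and 0 fell, against 5.86% and 4.59% of 16309 genes, and 19 members had an unadjusted p below 0.05, against 23.3% of genes. The median log2 fold change of the members was 1.06 in experiment 1, against 0.02 for all genes, and 0.70 in experiment 2, against -0.03 for all genes. Groups without overlap, in which every aged ovary lay above every young ovary, were found for 23 members in experiment 1 and 11 in experiment 2, against 14% and 6.46% of genes. All 11 members called in experiment 2 were also called in experiment 1 (100% of the calls of experiment 2 and 40.7% of those of experiment 1): Ctsa, Ctsb, Ctsc, Ctsh, Ctss, Ctsz, Gla, Man2b1, Psap, Lipa and Atp6v1b2. With the age effect averaged over both experiments in 1 fit of all 27 libraries, 30 members rose and 1 fell, against 17.5% and 17.8% of 17484 genes. Of members with the promoter motif 8 of 11 rose in that fit, and of those without it 18 of 22.

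**Figure D2:**
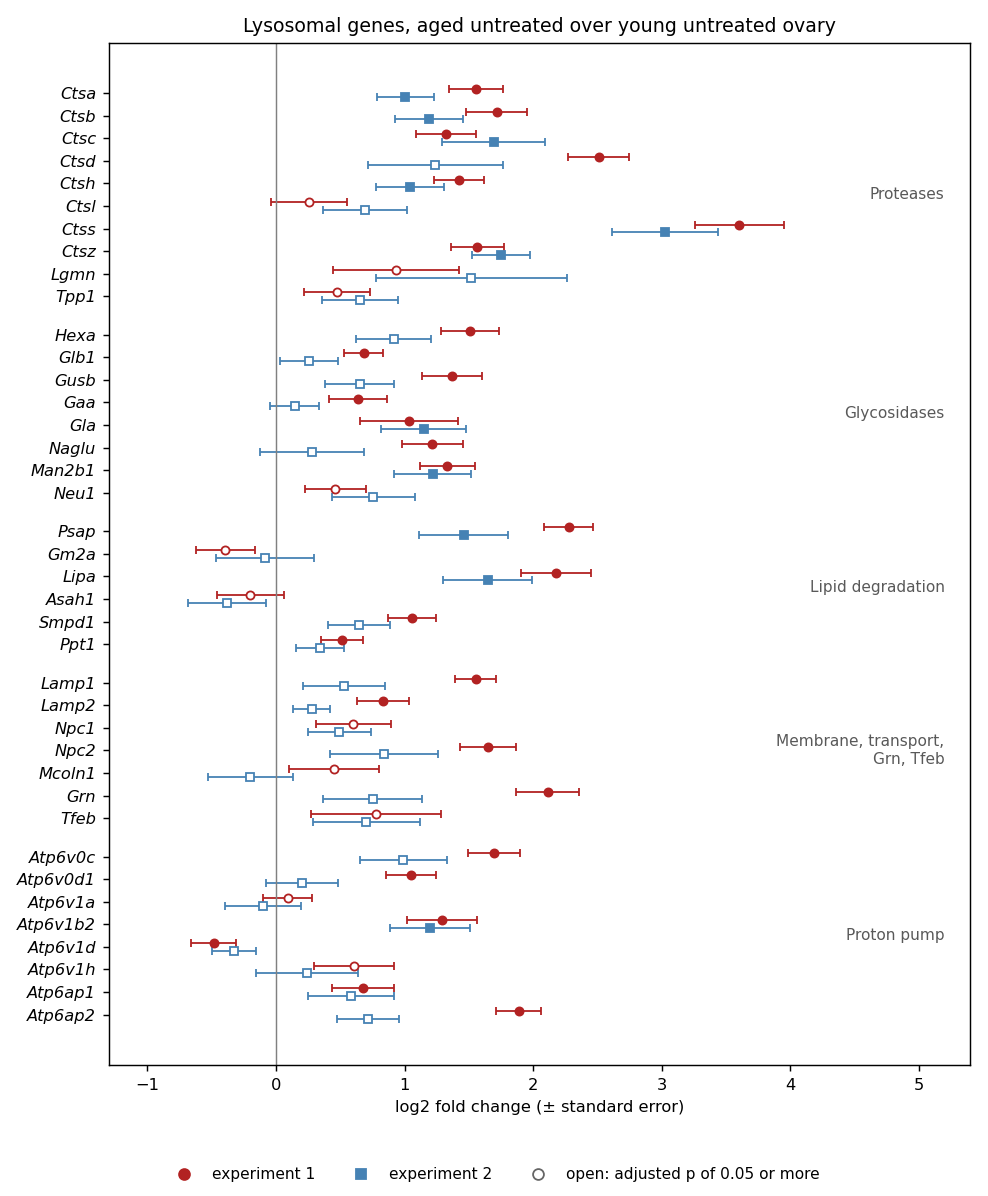
Log2 fold change of each lysosomal gene in untreated aged over untreated young ovaries (points, with the standard error as bars) in experiment 1 (circles, n = 4 against 5) and experiment 2 (squares, n = 5 against 5), grouped by role. Filled symbols passed the test, and most points lie right of 0, with Ctss the farthest at 3.60 and 3.03.

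The libraries' make-up moved with age alongside these genes. Summed over 17 macrophage and monocyte markers, TRi-1-treated aged ovaries held 4090 to 7751 CPM, untreated aged ovaries 7081 to 13130 CPM and young ovaries 874.1 to 1408 CPM in experiment 1. In experiment 2 the sums were 1666 to 11010 CPM in auranofin-treated aged ovaries, 4685 to 8853 CPM in untreated aged ovaries and 758.7 to 1548 CPM in young ovaries. None of the 17 had 0 counts in any group, and 15 of 17 rose with age in experiment 1 and 14 of 17 in experiment 2, with median log2 fold changes of 2.44 and 2.05. Of 8 B and plasma cell markers 7 rose in each experiment, with medians of 5.08 and 4.21. Of 7 T cell markers 7 and 6 rose, with medians of 3.45 and 3.065. Of 8 tested granulosa cell markers 6 fell in experiment 1 and 3 in experiment 2. Haemoglobin genes took 9.52% to 22.7% of counts in untreated aged against 1.87% to 8.19% in young ovaries of experiment 1. In experiment 2 they took 1.26% to 5.49% against 0.289% to 5.19%. The shares of lysosomal counts above include haemoglobin in the total. In bulk tissue, more cells of a type and more RNA per cell cannot be told apart. The part of the macrophages or of other cells in the rise of the lysosomal genes was not tested. Counts also leaned towards GC-rich genes in aged ovaries: the slope of log2 CPM on GC content, per 10 percentage points, was 0.0257 to 0.3261 in untreated aged against -0.246 to -0.1263 in young ovaries of experiment 1. In experiment 2 it was 0.0135 to 0.2192 in untreated aged ovaries against -0.283 to -2e-04 in young ovaries. After a correction for GC content, chosen after seeing the data, 27 members rose and 0 fell in experiment 1, and 13 rose in experiment 2. Of all genes 5313 and 1517 were then called in either direction, against 5590 and 1705 before the correction. Without the 3 libraries rich in liver transcripts 22 members rose in experiment 1, where Gaa, Gla, Ppt1, Lamp2 and Atp6ap1 lost their calls. Over both 23 rose, where Tpp1, Gaa, Naglu, Neu1, Npc1, Atp6v0d1 and Atp6ap1 lost theirs. Calls over all genes were 3968 and 5261 in either direction, against 5590 and 6173 with every library. Without the libraries poor in luteal transcripts 14 members rose in experiment 2, with Hexa, Gusb, Neu1 and Smpd1 gained and Gla lost. Over both 29 rose, with Tpp1 lost. Calls over all genes were 2059 and 6607 here, against 1705 and 6173.

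Among the proteases, 7 of 10 rose in experiment 1 and 6 in experiment 2, and 0 fell. Ctss encodes cathepsin S, a cysteine protease that trims the invariant chain of MHC class II in antigen-presenting cells (ENSMUSG00000038642, chromosome 3, 95526786 to 95556403). In experiment 1 Ctss was measured at 766, 596, 796 and 459 CPM in TRi-1-treated aged ovaries, 437, 1268, 1287 and 677 CPM in untreated aged ovaries and 57, 108, 108, 51.8 and 55.1 CPM in young ovaries. In experiment 2 Ctss was measured at 700.4, 548, 113 and 664 CPM in auranofin-treated aged ovaries, 286, 644, 582, 735 and 396 CPM in untreated aged ovaries and 58.05, 49.1, 58.2, 93.3 and 65.5 CPM in young ovaries. Every aged ovary without treatment exceeded every young one in both experiments, and auranofin replicate 3 came closest to the young range. The log2 fold change of untreated aged over young ovaries was 3.60 ± 0.35 (± standard error) in experiment 1 and 3.03 ± 0.41 in experiment 2 (edgeR adjusted p = 4.5e-06 and 0.000428).
Ctsz, cathepsin Z, trims single residues from the carboxyl end of proteins (ENSMUSG00000016256, chromosome 2, 174427493 to 174439039). In experiment 1 Ctsz had values of 156, 178, 122 and 115 CPM in TRi-1-treated aged ovaries, 165, 133, 248 and 152 CPM in untreated aged ovaries and 71.6, 48.05, 57.3, 57.01 and 63.2 CPM in young ovaries. In experiment 2 Ctsz had values of 180.2, 242, 137 and 238 CPM in auranofin-treated aged ovaries, 199, 201, 243, 226 and 148 CPM in untreated aged ovaries and 48.02, 46.3, 58.2, 62.6 and 87.5 CPM in young ovaries. The untreated aged and young groups did not overlap in either experiment. For Ctsz the log2 fold change with age was 1.56 ± 0.21 in experiment 1 and 1.75 ± 0.23 in experiment 2 (edgeR adjusted p = 3.94e-05 and 0.000272). Its exons overlap those of Nelfcd by 10 bases on the opposite strand, and the strand of counting is not given, so reads of such pairs of genes may be shared.
Ctsa, a carboxypeptidase that also protects the galactosidase Glb1 and the sialidase Neu1 from degradation, was likewise higher in all untreated aged ovaries (ENSMUSG00000017760, chromosome 2, 164832873 to 164841032). In experiment 1 Ctsa counted 126, 127, 109.6 and 94.7 CPM in TRi-1-treated aged ovaries, 129.6, 114, 249 and 152 CPM in untreated aged ovaries and 58.6, 50.8, 60.1, 51.6 and 55.01 CPM in young ovaries. In experiment 2 Ctsa counted 212, 154, 122 and 205 CPM in auranofin-treated aged ovaries, 130.3, 160.2, 169, 165 and 129.7 CPM in untreated aged ovaries and 58.95, 63.5, 103, 55.2 and 94.95 CPM in young ovaries. The change of Ctsa with age on the log2 scale was 1.55 ± 0.21 in experiment 1 and 1.01 ± 0.22 in experiment 2 (edgeR adjusted p = 4.74e-05 and 0.00834). Its exons overlap those of Pltp and Neurl2 on the opposite strand.
Ctsd is an aspartic protease that also activates other lysosomal enzymes (ENSMUSG00000007891, chromosome 7, 142375911 to 142388038). In experiment 1 Ctsd stood at 1476, 2325, 1748 and 1339 CPM in TRi-1-treated aged ovaries, 2747, 2422, 3335 and 1664 CPM in untreated aged ovaries and 466, 451, 609.6, 328 and 384 CPM in young ovaries. In experiment 2 Ctsd stood at 2939, 1856, 797 and 6858 CPM in auranofin-treated aged ovaries, 1050, 2892, 1589, 3610 and 2177 CPM in untreated aged ovaries and 2077, 977, 496, 517 and 709 CPM in young ovaries. The groups were apart in experiment 1, whereas in experiment 2 young replicate 1 reached the level of untreated aged ovaries and auranofin replicate 4 stood above all others. With age Ctsd had a log2 fold change that was 2.51 ± 0.24 in experiment 1 and 1.24 ± 0.53 in experiment 2 (edgeR adjusted p = 4.16e-06 and 0.165). The annotation places part of Gm49369 on the same exons, so its reads cannot be told apart.
The other proteases that passed in both experiments were Ctsb, with 1.72 ± 0.24 and 1.19 ± 0.27, the amino-terminal protease Ctsh, with 1.42 ± 0.20 and 1.04 ± 0.26, and Ctsc, which activates granule serine proteases, with 1.32 ± 0.24 and 1.69 ± 0.40. The adjusted p of Ctsh in experiment 2 was 0.0542 without young replicate 1 and 0.0606 without aged replicate 4. The asparagine-specific protease Lgmn had log2 fold changes of 0.93 and 1.52, Ctsl 0.26 and 0.69 and the tripeptidase Tpp1 0.47 and 0.65, and none of these passed in either experiment. Averaged over both experiments, Tpp1 rose by 0.55 (edgeR adjusted p = 0.0397), while Ctsl and Lgmn did not pass. Lgmn did pass with DESeq2 (adjusted p = 0.0272), and with edgeR without a filter on low counts (0.0446) or without haemoglobin genes (0.0468). Ctsl passed with edgeR after the GC correction (0.0413). That call of Tpp1 was lost when any of 13 libraries was left out, with RLE size factors (adjusted p = 0.051), with limma-voom (0.0536), and without the libraries poor in luteal transcripts (0.0616) or rich in liver transcripts (0.142).

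The glycosidases, which remove sugars from glycoproteins, glycolipids and glycogen, rose in 7 of 8 cases in experiment 1 and in 2 of 8 in experiment 2, and 8 of 8 rose over both experiments. Over both, 4 of the 8 calls were lost after the GC correction: Glb1 (adjusted p = 0.16), Gaa (0.661), Naglu (0.114) and Neu1 (0.106). Man2b1, lysosomal alpha-mannosidase, trims the glycans of glycoproteins (ENSMUSG00000005142, chromosome 8, 85083270 to 85098282). In experiment 1 Man2b1 was measured at 109, 90.2, 128 and 65.05 CPM in TRi-1-treated aged ovaries, 102, 107, 103 and 123 CPM in untreated aged ovaries and 41.96, 57.2, 31.9, 52.95 and 34.3 CPM in young ovaries. In experiment 2 Man2b1 was measured at 93.3, 75.96, 42.5 and 117 CPM in auranofin-treated aged ovaries, 57.9, 81.9, 72.2, 128 and 102 CPM in untreated aged ovaries and 32.7, 28.8, 26.7, 42.8 and 59.1 CPM in young ovaries. In experiment 2 the lowest untreated aged ovary fell just within the young range. For Man2b1 the log2 fold change with age was 1.33 ± 0.21 in experiment 1 and 1.22 ± 0.30 in experiment 2 (edgeR adjusted p = 0.000197 and 0.0151). Without aged replicate 4 the adjusted p of experiment 2 was 0.0527.
Hexa, the alpha subunit of beta-hexosaminidase, degrades gangliosides (ENSMUSG00000025232, chromosome 9, 59539540 to 59565109). In experiment 1 Hexa had values of 95.4, 106, 63.1 and 72.3 CPM in TRi-1-treated aged ovaries, 87.5, 82.2, 124 and 74.3 CPM in untreated aged ovaries and 34.04, 27.4, 46.2, 27.01 and 28.01 CPM in young ovaries. In experiment 2 Hexa had values of 122, 86.1, 44.9 and 156 CPM in auranofin-treated aged ovaries, 83.9, 127, 108, 118 and 91.5 CPM in untreated aged ovaries and 40.4, 50.3, 41.3, 71.7 and 77.3 CPM in young ovaries. Untreated aged and young ovaries did not overlap in either experiment, although the main test of experiment 2 missed the threshold. The change of Hexa with age on the log2 scale was 1.51 ± 0.23 in experiment 1 and 0.91 ± 0.29 in experiment 2 (edgeR adjusted p = 0.000111 and 0.057). In experiment 2 Hexa passed with DESeq2 and limma-voom (adjusted p = 0.033 and 0.0269). It passed with edgeR on only the groups compared (0.0182), all 27 libraries (0.0191) or a replicate block (0.0462). With RLE size factors, other filters, haemoglobin genes left out or the GC correction Hexa did not pass. Its exons overlap those of Tmem202 on the opposite strand.
Gusb, beta-glucuronidase, cleaves glycosaminoglycans (ENSMUSG00000025534, chromosome 5, 129989011 to 130003049). In experiment 1 Gusb counted 44.03, 41.9, 51.5 and 33.7 CPM in TRi-1-treated aged ovaries, 26.4, 50.1, 69.3 and 53.1 CPM in untreated aged ovaries and 18.8, 23.6, 17.2, 17.3 and 20.3 CPM in young ovaries. In experiment 2 Gusb counted 51.2, 53.05, 39.8 and 36.6 CPM in auranofin-treated aged ovaries, 39.8, 31.8, 41.96, 38.5 and 31.7 CPM in untreated aged ovaries and 26.5, 11.2, 39.7, 19.6 and 20.3 CPM in young ovaries. Young replicate 3 of experiment 2, a library poor in luteal transcripts, lay within the untreated aged range. With age Gusb had a log2 fold change that was 1.37 ± 0.23 in experiment 1 and 0.65 ± 0.27 in experiment 2 (edgeR adjusted p = 0.000334 and 0.153). Without that replicate the log2 fold change of experiment 2 was 0.93 (edgeR adjusted p = 0.0194).
Gaa, acid alpha-glucosidase, degrades glycogen (ENSMUSG00000025579, chromosome 11, 119267887 to 119285454). In experiment 1 Gaa stood at 39.5, 63.3, 34.95 and 32.9 CPM in TRi-1-treated aged ovaries, 55.8, 37.5, 50.4 and 54.3 CPM in untreated aged ovaries and 37.7, 22.9, 36.3, 35.3 and 28.2 CPM in young ovaries. In experiment 2 Gaa stood at 64.2, 57.5, 58.5 and 96.7 CPM in auranofin-treated aged ovaries, 46.8, 61.4, 45.95, 60.3 and 43.6 CPM in untreated aged ovaries and 46.9, 44.6, 55.7, 36.6 and 49.2 CPM in young ovaries. The groups overlapped in both experiments. For Gaa the log2 fold change with age was 0.64 ± 0.22 in experiment 1 and 0.14 ± 0.19 in experiment 2 (edgeR adjusted p = 0.0368 and 0.722). Its call in experiment 1 was lost after the GC correction, at 0.24 (adjusted p = 0.331), and when any of 6 libraries was left out. Without the libraries rich in liver transcripts it had 0.54 (adjusted p = 0.178). Over both experiments its call was lost when any of 11 libraries was left out, with RLE size factors (adjusted p = 0.0653), with DESeq2 (0.0618) and with either other filter on low counts (0.061 and 0.0507).
The galactosidase Gla rose in both experiments, with 1.03 ± 0.38 and 1.15 ± 0.33, at a level of 15.2 ± 9.05 CPM in untreated aged against 7.51 ± 0.508 CPM in young ovaries of experiment 1 and of 8.07 ± 1.96 against 3.62 ± 1.27 CPM in experiment 2. Its call was lost in each experiment when any of 8 libraries was left out, and without the libraries rich in liver transcripts its change in experiment 1 was 0.69 (edgeR adjusted p = 0.292). Glb1, whose activity is stained as a marker of senescent cells, had log2 fold changes of 0.68 and 0.25, the heparan sulphate enzyme Naglu 1.22 and 0.28 and the sialidase Neu1 0.46 and 0.76. Glb1 and Naglu passed in experiment 1, with edgeR adjusted p of 0.00228 and 0.000936, and Neu1 passed over both experiments, at 0.0264. The Neu1 call was lost when any of 5 libraries was left out and without the libraries rich in liver transcripts (adjusted p = 0.0923). The Naglu call over both was lost when either of 2 libraries was left out and without the libraries rich in liver transcripts (adjusted p = 0.0979).

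Of the 6 genes of lipid degradation, 4 rose in experiment 1 and 2 in experiment 2. Psap encodes the precursor of the saposins, small proteins that present sphingolipids to their hydrolases (ENSMUSG00000004207, chromosome 10, 60277627 to 60302597). In experiment 1 Psap was measured at 1687, 2290, 1990 and 1447 CPM in TRi-1-treated aged ovaries, 2044, 1989, 3007 and 1612 CPM in untreated aged ovaries and 499, 410.3, 468, 431 and 441 CPM in young ovaries. In experiment 2 Psap was measured at 2889, 2166, 923 and 4345 CPM in auranofin-treated aged ovaries, 1153, 2290, 1751, 2683 and 1822 CPM in untreated aged ovaries and 545, 772, 573, 599 and 1035 CPM in young ovaries. The untreated aged and young ovaries were apart in both experiments. The change of Psap with age on the log2 scale was 2.28 ± 0.19 in experiment 1 and 1.46 ± 0.34 in experiment 2 (edgeR adjusted p = 1.88e-06 and 0.0129).
Lipa, lysosomal acid lipase, frees cholesterol and fatty acids from lipoprotein esters (ENSMUSG00000024781, chromosome 19, 34492318 to 34527474). In experiment 1 Lipa had values of 99.8, 122, 136 and 85.8 CPM in TRi-1-treated aged ovaries, 63.8, 146, 203 and 111 CPM in untreated aged ovaries and 30.9, 32.7, 20.9, 28.3 and 33.7 CPM in young ovaries. In experiment 2 Lipa had values of 186, 140.2, 43.2 and 84.9 CPM in auranofin-treated aged ovaries, 64.02, 116, 98.6, 113 and 104 CPM in untreated aged ovaries and 41.3, 19.3, 21.6, 34.9 and 41.6 CPM in young ovaries. Every untreated aged ovary again exceeded every young one. With age Lipa had a log2 fold change that was 2.18 ± 0.27 in experiment 1 and 1.65 ± 0.34 in experiment 2 (edgeR adjusted p = 2.42e-05 and 0.00635).
Smpd1, acid sphingomyelinase, forms ceramide from sphingomyelin (ENSMUSG00000037049, chromosome 7, 105554360 to 105558389). In experiment 1 Smpd1 counted 40.4, 37.4, 30.6 and 29 CPM in TRi-1-treated aged ovaries, 46.4, 41.8, 61.7 and 42.8 CPM in untreated aged ovaries and 29.6, 26.2, 18.9, 21.6 and 20.3 CPM in young ovaries. In experiment 2 Smpd1 counted 37.7, 35.1, 25.6 and 58.3 CPM in auranofin-treated aged ovaries, 46.95, 42.9, 40.3, 48.3 and 36.7 CPM in untreated aged ovaries and 24.3, 24.7, 42.02, 20.1 and 26.4 CPM in young ovaries. In experiment 1 TRi-1-treated ovaries lay wholly below the untreated aged ones and young ovaries lower still, apart from 1 young library at 29.6 CPM. For Smpd1 the log2 fold change with age was 1.06 ± 0.19 in experiment 1 and 0.65 ± 0.24 in experiment 2 (edgeR adjusted p = 0.000506 and 0.107). Without young replicate 3, the highest young ovary of experiment 2, its change there was 0.85 (edgeR adjusted p = 0.0223).
The thioesterase Ppt1, which removes fatty acids from proteins, rose in experiment 1 by 0.51 ± 0.16 (edgeR adjusted p = 0.0212) and had 0.34 ± 0.19 in experiment 2. Its adjusted p in experiment 1 was 0.0527 without young replicate 1, 0.0738 without aged replicate 3, 0.0509 without aged replicate 4 and 0.123 without the libraries rich in liver transcripts. Gm2a, the activator protein for ganglioside breakdown, had -0.39 and -0.09 and the acid ceramidase Asah1 -0.20 and -0.38. Neither passed in any comparison.

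Among membrane proteins, cholesterol transporters and regulators, 4 of 7 rose in experiment 1 and 0 of 7 in experiment 2. In experiment 2 limma-voom called Lamp1, Npc2 and Grn higher (adjusted p = 0.0453, 0.0316 and 0.0117). After the GC correction edgeR called Lamp2 higher there (adjusted p = 0.013). The other alternative runs of experiment 2 called none of these genes. Grn encodes progranulin, a secreted protein that is cut into granulins in the lysosome (ENSMUSG00000034708, chromosome 11, 102430315 to 102437048). In experiment 1 Grn stood at 459, 616, 418 and 510.2 CPM in TRi-1-treated aged ovaries, 937, 498, 1004 and 955 CPM in untreated aged ovaries and 203, 197, 286, 161 and 139.5 CPM in young ovaries. In experiment 2 Grn stood at 803, 532, 697 and 2021 CPM in auranofin-treated aged ovaries, 458, 851, 548, 978 and 759.8 CPM in untreated aged ovaries and 266, 632, 640.3, 218 and 366 CPM in young ovaries. In experiment 2 young replicates 2 and 3 lay within the untreated aged range. The change of Grn with age on the log2 scale was 2.11 ± 0.24 in experiment 1 and 0.75 ± 0.39 in experiment 2 (edgeR adjusted p = 1.45e-05 and 0.267). Its exons overlap those of Fam171a2 on the opposite strand.
Lamp1 is an abundant glycoprotein of the lysosomal membrane and held the 4 promoter matches shown above (ENSMUSG00000031447, chromosome 8, 13159161 to 13175338). In experiment 1 Lamp1 was measured at 479.8, 502, 540.4 and 433 CPM in TRi-1-treated aged ovaries, 669.8, 577, 858 and 629 CPM in untreated aged ovaries and 234, 239, 275, 212 and 211 CPM in young ovaries. In experiment 2 Lamp1 was measured at 616, 499.9, 378 and 1217 CPM in auranofin-treated aged ovaries, 391, 664, 464, 684 and 483 CPM in untreated aged ovaries and 242, 590.3, 356, 259.9 and 404 CPM in young ovaries. The order in experiment 1 was untreated aged, TRi-1-treated aged and young, with no overlap between any of these groups, and the groups of experiment 2 overlapped. With age Lamp1 had a log2 fold change that was 1.55 ± 0.16 in experiment 1 and 0.53 ± 0.32 in experiment 2 (edgeR adjusted p = 6.86e-06 and 0.357). Its exons overlap those of Grtp1 on the opposite strand.
Npc2 hands cholesterol within the lysosome to the transporter Npc1 (ENSMUSG00000021242, chromosome 12, 84754562 to 84773152). In experiment 1 Npc2 had values of 687, 869.9, 720.4 and 598 CPM in TRi-1-treated aged ovaries, 1051, 1053, 1854 and 918 CPM in untreated aged ovaries and 449, 383, 471, 305 and 348 CPM in young ovaries. In experiment 2 Npc2 had values of 825, 586, 359 and 2186 CPM in auranofin-treated aged ovaries, 474, 1026, 629.7, 1091 and 889.6 CPM in untreated aged ovaries and 293, 765, 325, 414 and 482 CPM in young ovaries. The same order without overlap was seen in experiment 1. For Npc2 the log2 fold change with age was 1.65 ± 0.22 in experiment 1 and 0.84 ± 0.42 in experiment 2 (edgeR adjusted p = 3.89e-05 and 0.246).
Tfeb is the regulator that turns on lysosomal genes and is itself controlled mainly by its location in the cell, which RNA does not show (ENSMUSG00000023990, chromosome 17, 47737030 to 47792419). In experiment 1 Tfeb counted 6.34, 17.6, 5.05 and 11.2 CPM in TRi-1-treated aged ovaries, 11.2, 5.51, 19.6 and 9.15 CPM in untreated aged ovaries and 4.64, 4.495, 13.9, 8.37 and 2.04 CPM in young ovaries. In experiment 2 Tfeb counted 6.23, 7.62, 3.15 and 23.6 CPM in auranofin-treated aged ovaries, 9.96, 14.2, 17.2, 17.4 and 12.3 CPM in untreated aged ovaries and 9.12, 12.5, 7.08, 7.29 and 7.65 CPM in young ovaries. All groups overlapped, and counts were low, with 14 in the lowest library. The change of Tfeb with age on the log2 scale was 0.78 ± 0.51 in experiment 1 and 0.70 ± 0.42 in experiment 2 (edgeR adjusted p = 0.253 and 0.346). Over both experiments Tfeb did not pass in the main fit. There limma-voom called it higher, at 0.89 (adjusted p = 0.0141), as did edgeR without young replicate 3 of experiment 1, at 0.97 (0.0259).
Lamp2, which also serves in chaperone-mediated autophagy, had 0.83 and 0.28, and passed in experiment 1 alone (edgeR adjusted p = 0.00485), though groups did not overlap in either. Without the libraries rich in liver transcripts its change in experiment 1 was 0.68 (edgeR adjusted p = 0.0627). Npc1 had 0.60 and 0.49 and the calcium channel Mcoln1 0.45 and -0.20. Npc1 passed over both experiments (edgeR adjusted p = 0.0352) and Mcoln1 in no comparison. The Npc1 call was lost when any of 11 libraries was left out and without the libraries rich in liver transcripts (adjusted p = 0.162).

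**Figure D3:**
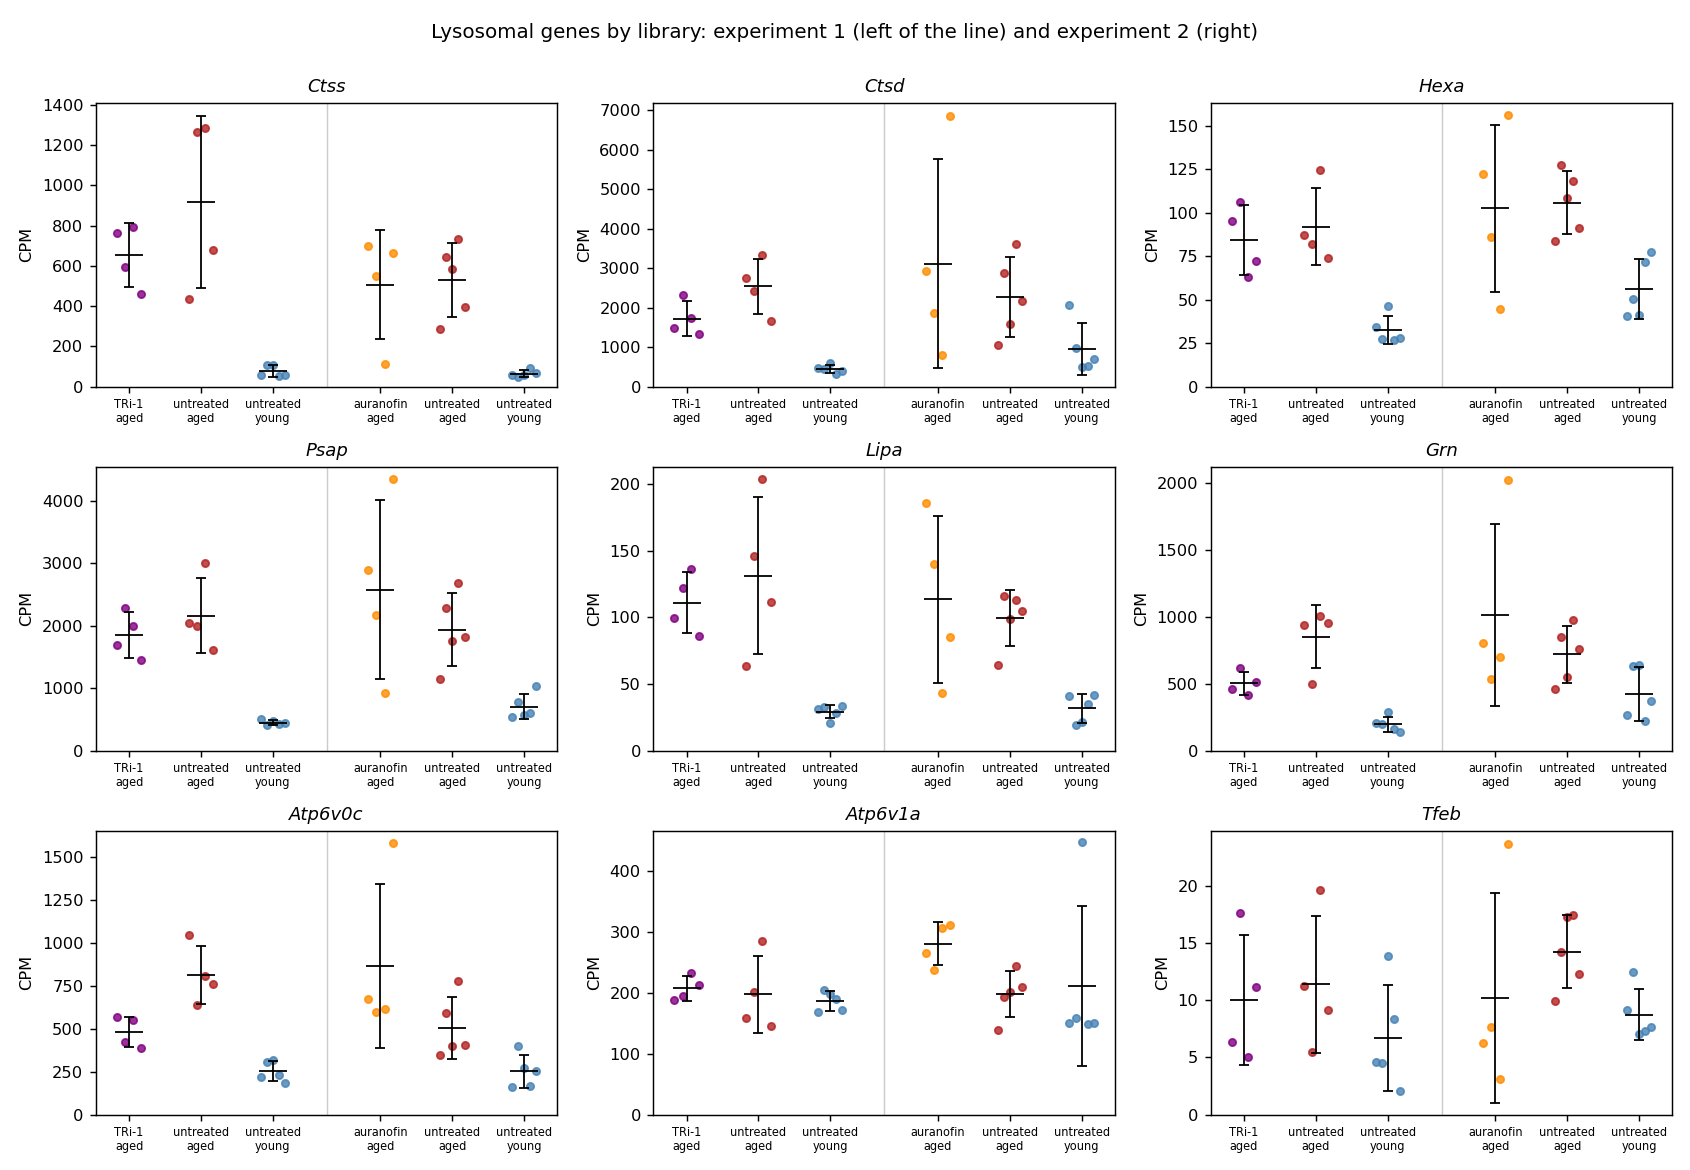
CPM of 9 lysosomal genes in each ovary (points), with the mean and SD of each group (bars); experiment 1 lies left of the line and experiment 2 right of it. Ctss, Psap and Lipa separate untreated aged from young ovaries in both experiments, Ctsd, Grn and Atp6v0c in experiment 1, and Atp6v1a and Tfeb in neither.

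The proton pump genes moved in both directions: 5 of 8 rose and 1 fell in experiment 1, and 1 rose in experiment 2. Atp6ap2, an accessory protein also known as the prorenin receptor, changed most among them in experiment 1 (ENSMUSG00000031007, chromosome X, 12587801 to 12617049). In experiment 1 Atp6ap2 stood at 192, 135, 198 and 155 CPM in TRi-1-treated aged ovaries, 247, 257, 281 and 288 CPM in untreated aged ovaries and 59.5, 80.9, 87.1, 63.7 and 74.6 CPM in young ovaries. In experiment 2 Atp6ap2 stood at 189, 169, 149.5 and 307 CPM in auranofin-treated aged ovaries, 132, 168, 126, 250.1 and 209.6 CPM in untreated aged ovaries and 103, 135, 91.3, 101 and 108 CPM in young ovaries. In experiment 1 the 3 groups did not overlap, with TRi-1-treated ovaries between untreated aged and young ones. With age Atp6ap2 had a log2 fold change that was 1.89 ± 0.17 in experiment 1 and 0.72 ± 0.24 in experiment 2 (edgeR adjusted p = 3.35e-06 and 0.0737). In experiment 2 limma-voom called Atp6ap2 higher (adjusted p = 0.0185). So did edgeR with all 27 libraries in 1 fit (0.0164) and after the GC correction (0.0223), and the other alternative runs did not.
Atp6v0c forms the membrane ring that carries protons (ENSMUSG00000024121, chromosome 17, 24163866 to 24169702). In experiment 1 Atp6v0c was measured at 566, 424, 548 and 389.8 CPM in TRi-1-treated aged ovaries, 1044, 638, 805 and 759.6 CPM in untreated aged ovaries and 219, 306, 320.4, 232 and 184 CPM in young ovaries. In experiment 2 Atp6v0c was measured at 670.5, 594, 612 and 1578 CPM in auranofin-treated aged ovaries, 344, 592, 398, 780 and 404 CPM in untreated aged ovaries and 162, 402, 272, 169 and 254 CPM in young ovaries. Untreated aged, TRi-1-treated and young ovaries were again apart in experiment 1, and auranofin replicate 4 stood far above the rest of its group. For Atp6v0c the log2 fold change with age was 1.69 ± 0.20 in experiment 1 and 0.99 ± 0.34 in experiment 2 (edgeR adjusted p = 2e-05 and 0.0795). In experiment 2 DESeq2 and limma-voom called Atp6v0c higher (adjusted p = 0.0409 and 0.00427). So did edgeR with all 27 libraries in 1 fit (0.0181) and without young replicate 2 (0.0415), and the other alternative runs did not.
Atp6v1b2, the B subunit made in most tissues, sits beside the catalytic subunit in the V1 sector (ENSMUSG00000006273, chromosome 8, 69088646 to 69113711). In experiment 1 Atp6v1b2 had values of 64.8, 75.8, 74.3 and 49.7 CPM in TRi-1-treated aged ovaries, 31.7, 81.02, 101 and 72.8 CPM in untreated aged ovaries and 31.8, 26.4, 19.8, 34.5 and 35.6 CPM in young ovaries. In experiment 2 Atp6v1b2 had values of 99.3, 96.6, 58.2 and 52.9 CPM in auranofin-treated aged ovaries, 90.9, 54.7, 83.4, 64.3 and 65.4 CPM in untreated aged ovaries and 35.2, 10.8, 40.9, 40.05 and 30.4 CPM in young ovaries. The groups did not overlap in experiment 2, and in experiment 1 aged replicate 1 lay within the young range. The change of Atp6v1b2 with age on the log2 scale was 1.29 ± 0.27 in experiment 1 and 1.197 ± 0.31 in experiment 2 (edgeR adjusted p = 0.00167 and 0.0219). Without aged replicate 1 or 3 the adjusted p of experiment 2 was 0.0583 or 0.0519.
Atp6v1a, the catalytic subunit that hydrolyses ATP, passed in no comparison (ENSMUSG00000052459, chromosome 16, 44085402 to 44139705). In experiment 1 Atp6v1a counted 188, 196, 233 and 213 CPM in TRi-1-treated aged ovaries, 158, 202, 285 and 146 CPM in untreated aged ovaries and 169, 205, 198, 189.8 and 173 CPM in young ovaries. In experiment 2 Atp6v1a counted 266, 238, 308 and 312 CPM in auranofin-treated aged ovaries, 139.7, 194, 201, 245 and 209 CPM in untreated aged ovaries and 150.1, 159, 448, 149 and 151 CPM in young ovaries. Young replicate 3 of experiment 2 held more than any other library. With age Atp6v1a had a log2 fold change that was 0.09 ± 0.19 in experiment 1 and -0.10 ± 0.30 in experiment 2 (edgeR adjusted p = 0.741 and 0.89).
Atp6v1d, part of the central stalk, was the member that fell with age, at 113 ± 15.1 CPM in untreated aged against 160.1 ± 23.9 CPM in young ovaries of experiment 1 and 91.9 ± 7.76 against 115 ± 19.2 CPM in experiment 2. Its log2 fold changes were -0.49 and -0.33, with edgeR adjusted p of 0.0394 and 0.267, and -0.41 over both experiments (0.00532). That call in experiment 1 was lost when any of 5 libraries was left out and after the GC correction, which also ended the call over both experiments (adjusted p = 0.0653). Of the rest, Atp6v0d1, which couples the sectors, had 1.05 and 0.20, the accessory subunit Atp6ap1 0.67 and 0.58 and the regulatory subunit Atp6v1h 0.61 and 0.24. Atp6v0d1 and Atp6ap1 passed in experiment 1, with edgeR adjusted p of 0.000595 and 0.04, the second lost when any of 7 libraries was left out, after the GC correction (adjusted p = 0.0598) and without the libraries rich in liver transcripts, at 0.40 (0.313).

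The log2 fold change with age was lower in experiment 2 than in experiment 1 for 30 of the 39 members, whether or not they passed in either, against 51.3% of genes, and the median of the difference (experiment 2 minus experiment 1) was -0.40, against -0.02 for all genes. No member's difference passed edgeR's test (0 of 39, against 0% of 17484 genes in each direction), and 5 had an unadjusted p below 0.05, all of them negative, against 11.8% of genes. The smallest p values belonged to Atp6ap2 with a difference of -1.15 ± 0.29, Grn with -1.35 ± 0.48 and Lamp1 with -1.01 ± 0.37 (edgeR adjusted p = 0.126, 0.256 and 0.265). With DESeq2 and with limma-voom the difference of Atp6ap2 passed, where 172 and 33 genes passed in all, against 0 in the main fit. The median was -0.23 without aged replicate 3 of experiment 1, -0.27 without the libraries rich in liver transcripts and -0.315 without those poor in luteal transcripts, and 3, 3 and 8 members had an unadjusted p below 0.05. In young ovaries the share of counts was higher in experiment 2 than in experiment 1, at 0.581% to 0.825% against 0.384% to 0.521%, with no overlap. Abundant genes weigh most in this share, such as Ctsd, at a mean of 955.3 against 447.9 CPM. The members' mean log2 CPM, which gives each gene the same weight, overlapped, at 6.04 to 6.37 against 5.93 to 6.11. The experiments were not tested against each other on either measure.

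A further 119 lysosomal genes in 6 lists were examined beside the members. With age 48 rose and 2 fell of 110 tested in experiment 1, against 18.5% and 16.4% of all genes. In experiment 2, 16 rose and 0 fell of 114, against 5.86% and 4.59%, and over both 52 rose and 3 fell of 114, against 17.5% and 17.8%. Of 32 other hydrolases 15 rose over both experiments, among them the phospholipase Pla2g15 by 1.59 ± 0.20 and the sulphatase Ids by 0.97 ± 0.16, while Hyal1 at -0.53 and Arsa at -0.64 did not pass. Of 26 membrane proteins and transporters 16 rose and 1 fell. The macrophage sialomucin Cd68 rose by 2.99 ± 0.27 and the leukocyte protein Laptm5 by 2.42 ± 0.22. Mfsd8 fell by 0.63, and Slc17a5 at -0.30 did not pass. In the list of enzyme sorting 5 of 15 rose and 2 fell. Gnptab, which makes the mannose 6-phosphate tag, rose by 1.11 ± 0.20 and the sorting receptor Sort1 by 0.91 ± 0.21, whereas the retromer subunit Vps35 fell by 0.71 and the mannose 6-phosphate receptor Igf2r by 1.08. Of 18 regulators 6 rose and 0 fell, with Tfe3, a relative of Tfeb, at 1.09 ± 0.17 and the autophagy receptor Sqstm1 at 0.71 ± 0.14. Lamtor5 at -0.15 and Rragd at -0.37 did not pass. Of 15 other pump subunits 6 rose: Atp6v0d2 by 3.69 ± 0.54 and Tcirg1, known from the osteoclast pump, by 1.73 ± 0.24, while Atp6v1e1 at -0.31 and Atp6v0e at -0.23 did not pass. Cathepsin inhibitors rose in 4 of 8 cases, with Cst7 at 2.69 ± 0.46 and Serpina3g at 1.78 ± 0.31. The called genes named here had edgeR adjusted p between 5.53e-09 and 0.0384.

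TRi-1 was then compared with no treatment in aged ovaries of experiment 1. This comparison shares its 4 untreated aged ovaries with the age comparison. Of the 39 members 0 passed edgeR's test, against 0.175% of genes called higher and 0.243% called lower, and 10 had an unadjusted p below 0.05, against 16.5% of genes. Those 10 were all lower in TRi-1-treated ovaries. The log2 fold change was below 0 for 30 of 39 members, against 50.3% of genes, with a median of -0.24 against -0.00. In 5 members every TRi-1-treated ovary lay below every untreated aged one, against 4.57% of genes: Smpd1, Lamp1, Npc2, Atp6v0c and Atp6ap2. The smallest p belonged to Atp6ap2 at -0.68 ± 0.18 (edgeR adjusted p = 0.0862), Atp6v0c at -0.77 ± 0.22 (0.0986) and Npc2 at -0.78 ± 0.23 (0.112), whose values per library are given above. Grn had -0.78 ± 0.25 (0.151). DESeq2 called these first 3 genes lower, limma-voom called 0 members, and after the GC correction edgeR called Atp6ap2 lower, at -0.88 (adjusted p = 0.037). In either direction DESeq2 called 587 genes in all, limma-voom 97 and edgeR after the correction 51, against 67 in the main fit. Without aged replicate 3, the library of its group with the largest share of lysosomal counts, 4 members had an unadjusted p below 0.05 and the median was -0.10. Without TRi-1 replicate 4 they were 5 and -0.13, and without the libraries rich in liver transcripts, among them aged replicate 3 and TRi-1 replicate 1, they were 2 and -0.09. The macrophage markers had a median of -0.57 and 0 of 17 passed, and haemoglobin genes took 4.5% to 12% of counts in TRi-1-treated against 9.52% to 22.7% in untreated aged ovaries. The part of either in these values was not tested. The 119 further lysosomal genes had 0 calls of 110 tested.

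Auranofin gave no call among the members in experiment 2 either: 0 of 39 passed edgeR's test, against 0.0184% of genes called higher and 0% called lower. This comparison shares its 5 untreated aged ovaries with the age comparison of experiment 2. An unadjusted p below 0.05 was found for 1 member, Atp6v0c, against 7.04% of genes, and DESeq2 and limma-voom called 0 members. Of all genes they called 76 and 33. The log2 fold change was above 0 for 28 of 39 members, against 52% of genes, with a median of 0.19 against 0.02. The smallest p belonged to Atp6v0c at 0.76 ± 0.35 (edgeR adjusted p = 0.696), Gaa at 0.41 ± 0.20 (0.729) and Atp6v1a at 0.50 ± 0.31 (0.804). Lamp2 was the member with no overlap, at 453 ± 29.8 CPM in auranofin-treated and 387 ± 19.6 CPM in untreated aged ovaries, where 1.99% of genes showed such a rise. The 4 auranofin-treated ovaries differed widely, with shares of lysosomal counts from 0.882% in replicate 3 to 2.11% in replicate 4. Without the libraries poor in luteal transcripts, replicate 3 among them, 4 members had an unadjusted p below 0.05. Without replicate 3 the median was 0.30, without replicate 1 it was -0.00 and without replicate 4 it was -0.02. Macrophage markers had a median of -0.11 with 0 of 17 called. The further lysosomal genes had 0 calls of 114 tested.

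**Figure D4:**
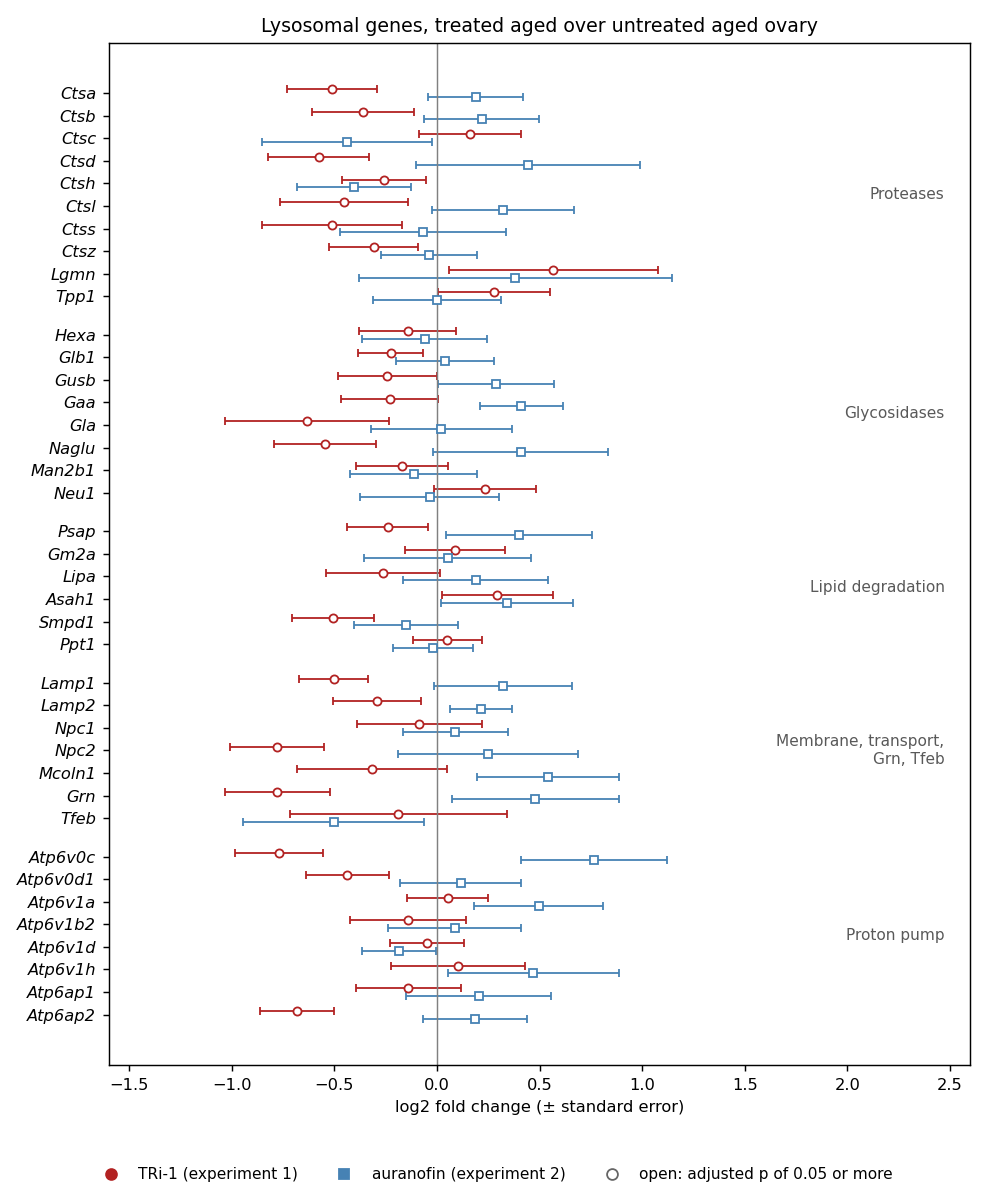
Log2 fold change of each lysosomal gene in treated over untreated aged ovaries (points, with the standard error as bars), for TRi-1 in experiment 1 (circles, n = 4 against 4) and auranofin in experiment 2 (squares, n = 4 against 5). All symbols are open because no member passed the test; 30 of 39 lie below 0 for TRi-1 and 28 of 39 above 0 for auranofin.

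The auranofin effect minus the TRi-1 effect had a median of 0.43 over the members, against -0.01 for all genes, and 0 of 39 differences passed edgeR's test, against 0.0172% of genes called higher and 0% called lower. An unadjusted p below 0.05 was found for 6 members, all with the auranofin effect higher, against 10.9% of genes. DESeq2 and limma-voom called 0 members, and 93 and 30 genes in all. The 6 were led by Atp6v0c with a difference of 1.53 ± 0.44, Atp6ap2 with 0.86 ± 0.31 and Grn with 1.26 ± 0.51 (edgeR adjusted p = 0.207, 0.316 and 0.367). Without the libraries rich in liver transcripts the median was 0.24 and 2 members had such a p, and without those poor in luteal transcripts they were 0.48 and 11. Single omissions that moved the median most were aged replicate 3 of experiment 1 (0.18), auranofin replicate 4 (0.26) and TRi-1 replicate 4 (0.27), with 3, 1 and 3 such members. Compound and experiment changed together, so they cannot be told apart in this difference, and a p that misses the threshold does not show that the compounds act alike. Set against young ovaries, every TRi-1-treated ovary lay higher for 25 of 39 members, against 11.2% of genes, and 22 of these also lay wholly higher in untreated aged ovaries. Every auranofin-treated ovary lay higher than every young one for 9 members, against 5.28% of genes, of which 6 also did so without treatment. These comparisons share the young ovaries with the age comparisons.

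The genes most like the members across the 27 libraries were named by the Spearman correlation of each gene with the members' mean log2 CPM, among the 11300 genes whose mean was 5 CPM or more. They were Lgals3 at 0.97, Cd68 at 0.96, and Slc15a3, Cd84, Gpnmb and C3ar1 at 0.94 each. Young and aged ovaries form separate clusters on both measures, which such a correlation includes. Over deviations from the group means the same 6 genes had correlations of 0.82, 0.80, 0.66, 0.65, 0.72 and 0.74. Libraries share depth and composition in both measures, and these values are descriptions. Within groups, single members ranged in their correlation with the mean of the others from -0.06 for Atp6v1d to 0.76 for Ctss, so they did not vary as a single block.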

How the data were processed

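The authors deposited gene-level counts, not normalized, in 1 table of 27 columns that match the labels' short names, with 0 columns of other samples. Per the submitters' processing notes, RSEM 1.2.3, DESeq2 and the mm10 build were used, with no role given. The counting annotation, strand and filters are not given in the sources used here. Symbols for 51596 of 51789 gene IDs came from GENCODE M21. No duplicated library was found inside any group, since the chi-square per gene over 48 pairs was 20.5 to 208.

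Groups came from the labels. Counts were tested in R 4.3.3 with edgeR 4.0.16 (TMM, filterByExpr on the groups, quasi-likelihood F test, 1 mean per group, Benjamini-Hochberg over all genes tested, threshold 0.05). Each experiment had its own fit of all 3 groups, and results over both experiments came from 1 fit of all 27 libraries. Standard errors are the log2 fold change over the square root of F, and log2 CPM used a prior count of 2. P-values set each difference against the spread between these samples. Plots used matplotlib 3.10.9 in Python 3.11.15.

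The members, lists and tests were chosen with earlier results of these data known. Values per library are given for the 3 members with the smallest age p in each role group, the 3 with the smallest p in each treatment or difference test without calls, the member with the highest mean CPM of each role group, and Tfeb. Of each further list, the 2 smallest p in each direction over both experiments are named. Ctsb, Ctsl, Npc1, Ppt1, Glb1 and Atp6v1h, like members noted in the text, share exon bases with another gene, which makes their counts uncertain. Results were recomputed with RLE size factors, DESeq2 1.42.0, limma 3.58.1 voom with quality weights, other filters, haemoglobin genes left out, other sets of libraries in the fit, a block for the replicate number and single libraries omitted. Those added after seeing the data were a GC correction over the last 1000 nucleotides of transcripts and the omission of libraries poor in luteal markers (mean log2 CPM under 3) or rich in liver transcripts (over 4.5).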

Additional observations from a re-analysis of the deposited data

Results flagged for a closer look

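Among the 19 members given per library, 114 groups were checked for a library far from the rest of its group, and 5 were found, where chance gives about 1 in 20. Auranofin replicate 4 held 1578 CPM of Atp6v0c, against 594 to 670 CPM in the other auranofin-treated ovaries. Untreated aged replicate 3 of experiment 1 held 1854 CPM of Npc2, above the other untreated aged ovaries, and untreated aged replicate 2 of experiment 1 held 498.5 CPM of Grn, below them. Young replicate 3 of experiment 2, the young library poor in luteal transcripts, held 447.7 CPM of Atp6v1a and 42.02 CPM of Smpd1, in each case more than the other young ovaries of its group.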

How the results depend on the processing

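The counts of members that rose with age stayed within 1.5 times of those reported under every alternative run, with 1 exception. In experiment 2 limma-voom called 22 members higher in place of 11. It also called more genes in all there, 2642 in either direction against 1705. The members added were Ctsd, Hexa, Gusb, Neu1, Smpd1, Lamp1, Npc2, Grn, Atp6v0c, Atp6ap1 and Atp6ap2. No reported value changed sign past the threshold. The count of members that fell with age in experiment 1, 1 in the analysis above, was 0 under limma-voom, without a filter on low counts, with only the groups compared, with the replicate number as a block and after the GC correction, which also gave 0 over both experiments. For the difference between the 2 age effects, DESeq2 and limma-voom each called 1 member lower in experiment 2, among 172 and 33 genes. For TRi-1, DESeq2 called 3 members lower, among 587 genes called in all, and edgeR after the GC correction 1, among 51. The cause of these changes was not tested. With each library left out in turn, 23 to 28 members rose and 0 to 2 fell in experiment 1, 8 to 13 rose in experiment 2, and 24 to 30 rose and 1 fell over both experiments, the lowest being without aged replicate 3 of experiment 1. The treatment comparisons and both differences gave 0 calls each time. As a block, the replicate number gave 23 members risen in experiment 1, 11 in experiment 2 and 26 over both. Of all genes 4127, 1487 and 5408 were then called in either direction. The labels do not say whether the numbers pair mice. The correlation of deviations between same-numbered libraries ran from -0.3191 to 0.6057, which cannot decide it. Fits of only the groups compared do not apply to results over all 27 libraries, which already use 1 fit. Depth limits the low genes, such as Tfeb with 14 counts in its lowest library.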
